A study of Mus musculus with 3 samples.

Results

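Shared exonic open regions away from promoters were merged regions of open chromatin that overlapped an exon of a protein-coding gene and lay more than 1000 bp from every annotated transcription start site (TSS). To find them, overlapping peaks of 3 libraries were merged, a region was kept where all 3 libraries listed a peak, and its distance to the nearest TSS of any gene type and its overlap with exons were taken from GENCODE M21 (basic set, mouse build mm10). The rule gave 1165 regions, out of 25972 merged regions shared by all 3 libraries and 131881 merged regions found in any library. They were 10.6% of the 11025 shared regions more than 1000 bp from a TSS, called distal here. Of the other distal regions, 4386 were intronic (inside a protein-coding gene and touching no exon) and 4787 intergenic (inside no gene), and these are the comparison sets. The members were selected on the peak calls, so signal and peak counts are given as a description, while footprints and sequence were not used by the rule.

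The libraries are DNase-seq of liver from mouse embryos of 13.5 days. In this assay the enzyme DNase I cuts accessible DNA in nuclei, a peak marks a stretch with many cuts, and a footprint is a short stretch inside it that is cut less. The mice are given as strain C57BL/6N,129, wild type, with 1 copy of a YAC (yeast artificial chromosome) called A20, which was not analysed here. All 3 libraries belong to 1 group with no treatment and no control tissue. They are labelled biological replicates 1, 2 and 3, each from its own biosample but with 1 donor named for all, so the spread between them may be technical.

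Liver at this stage is a site of red blood cell formation, in which erythroid precursors mature beside hepatoblasts, the precursors of hepatocytes. Exons carry the code for protein, and some also hold binding sites for transcription factors, so that the same bases serve in translation and in regulation. Coding exons are rich in G and C. Where they hold many CpG dinucleotides they can resemble CpG islands, which mark most housekeeping promoters. CTCF is a zinc-finger protein that binds a long motif at insulators and chromatin loop anchors and leaves a clear footprint. GATA1 and TAL1 act together in erythroid cells at sites that join part of an E-box to a GATA motif, NRF1 binds a GC-rich palindrome, and SP and KLF factors bind GC-rich and CACCC boxes.

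The sequences of 8 members are shown because the results turn on them. In the first 7, capitals mark bases inside a footprint in all 3 libraries, each is given on the strand of its gene, and the build is mm10. Angptl6 (chr9:20878301-20878520, minus strand) and Sptbn4 (chr7:27361461-27361680, minus strand) are shown as strong members that hold the NRF1 string CGCATGCGC and the SP string GGGCGG under shared footprints. Ubtf (chr11:102309001-102309260, minus strand) and Kcnn4 (chr7:24377121-24377420, plus strand) are shown for a footprinted CACCC box and for AGATAA, the string read here as the GATA motif.
Angptl6: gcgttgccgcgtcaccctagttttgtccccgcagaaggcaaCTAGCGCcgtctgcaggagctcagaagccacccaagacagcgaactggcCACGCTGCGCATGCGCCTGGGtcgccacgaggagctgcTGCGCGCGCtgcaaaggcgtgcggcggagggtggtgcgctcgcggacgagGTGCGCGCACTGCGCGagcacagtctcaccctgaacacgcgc
Sptbn4: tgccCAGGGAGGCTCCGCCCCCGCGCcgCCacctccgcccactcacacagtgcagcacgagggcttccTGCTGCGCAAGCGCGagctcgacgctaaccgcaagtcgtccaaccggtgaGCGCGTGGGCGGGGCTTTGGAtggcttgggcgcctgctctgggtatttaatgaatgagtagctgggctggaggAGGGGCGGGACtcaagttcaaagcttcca
Ubtf: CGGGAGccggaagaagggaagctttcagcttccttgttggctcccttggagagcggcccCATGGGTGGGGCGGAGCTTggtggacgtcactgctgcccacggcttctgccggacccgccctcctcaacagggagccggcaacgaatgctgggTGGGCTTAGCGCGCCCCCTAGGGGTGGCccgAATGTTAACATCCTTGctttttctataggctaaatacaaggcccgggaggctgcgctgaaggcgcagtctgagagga
Kcnn4: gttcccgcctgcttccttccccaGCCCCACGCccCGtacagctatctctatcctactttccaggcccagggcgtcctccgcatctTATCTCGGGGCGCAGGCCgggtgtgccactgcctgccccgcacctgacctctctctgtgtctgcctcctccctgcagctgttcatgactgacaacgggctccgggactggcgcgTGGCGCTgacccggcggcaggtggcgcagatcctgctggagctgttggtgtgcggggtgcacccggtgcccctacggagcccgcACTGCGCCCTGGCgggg
The Angptl6 sequence is coding throughout. Its 2 NRF1 matches, 1 on each strand, overlap at bases 97 to 105 and 98 to 106, and all of their bases are in capitals. In Sptbn4 bases 1 to 114 are coding and 3 of its 4 SP matches, at bases 15 to 20, 125 to 130 and 194 to 199, are wholly in capitals. Of the Ubtf sequence, bases 212 to 260 are coding, and the footprinted CACCC box at bases 63 to 70 runs into an SP match at bases 68 to 73, both in the intron. In Kcnn4 the GATA match at bases 85 to 90 also lies in the intron, with 5 of its bases in capitals, and the coding part runs from base 163 to base 300.

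Klf1 (chr8:84903081-84903320, plus strand) and Spi1 (chr2:91115141-91115360, plus strand) are shown as coding exons of blood transcription factor genes with shared footprints. Gapdh (chr6:125162061-125162280, minus strand) is shown for a CTCF match, and Arrb1 (chr7:99594421-99594680, plus strand) for a match to the E-box GATA composite. Arrb1 was chosen after its values were seen, and its capitals mark the composite motif and not a footprint.
Klf1: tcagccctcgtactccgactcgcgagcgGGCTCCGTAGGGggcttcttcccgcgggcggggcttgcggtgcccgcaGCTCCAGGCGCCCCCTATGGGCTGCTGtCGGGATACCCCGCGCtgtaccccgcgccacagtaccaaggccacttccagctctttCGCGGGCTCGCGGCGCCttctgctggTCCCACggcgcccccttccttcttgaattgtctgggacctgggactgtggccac
Spi1: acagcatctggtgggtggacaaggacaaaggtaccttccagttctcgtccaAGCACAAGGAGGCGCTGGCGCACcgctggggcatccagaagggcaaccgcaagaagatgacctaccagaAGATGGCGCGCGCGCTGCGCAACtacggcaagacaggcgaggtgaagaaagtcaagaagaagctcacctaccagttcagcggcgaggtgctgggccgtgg
Gapdh: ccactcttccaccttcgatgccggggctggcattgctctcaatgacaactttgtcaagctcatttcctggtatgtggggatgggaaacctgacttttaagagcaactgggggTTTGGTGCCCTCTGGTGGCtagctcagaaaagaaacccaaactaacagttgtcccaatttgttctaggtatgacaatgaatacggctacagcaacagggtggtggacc
Arrb1: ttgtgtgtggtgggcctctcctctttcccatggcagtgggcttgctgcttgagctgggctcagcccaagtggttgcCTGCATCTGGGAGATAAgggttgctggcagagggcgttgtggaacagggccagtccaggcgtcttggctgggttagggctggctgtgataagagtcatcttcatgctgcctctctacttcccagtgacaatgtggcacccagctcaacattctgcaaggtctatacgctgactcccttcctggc
Klf1 and Spi1 are coding over all of the 240 and 220 bases shown, of which 77 and 46 are in capitals. The capitals of Spi1 include 8 of the 9 bases of a YY1 match, AAGATGGCG, at bases 120 to 128. In Gapdh the CTCF match at bases 119 to 130 lies in the intron between 2 coding stretches, and its 12 bases are all in capitals. The composite in Arrb1 spans bases 77 to 93, in the intron, and the coding part starts at base 201.

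Most members held both exonic and other sequence. A member was 220 bp wide at the median, with a range from 121 to 1509 bp, and 66.4% of its bases were exonic at the median. In 445 members (38.2%) every base was exonic, 720 crossed an exon edge, and 92 had under 10% of their bases in an exon. The midpoint lay in an exon in 716 members and outside the exons of protein-coding genes in 449, so for the latter "exonic" describes a flank. Coding sequence was overlapped by 884 members, or 75.9% (exact binomial 95% interval from 73.3% to 78.3%, which covers counting over regions only). Of the rest, 259 overlapped only a 3' UTR and 21 only a 5' UTR. By position, 649 met internal exons and 454 last exons, while 11 met only first exons.

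Distance from the nearest TSS ran from 1002 to 166327 bp with a median of 6435 bp, and for 618 members (53.0%) that TSS belonged to another gene than the one whose exon was overlapped. Being distal depended on the annotation: 300 members (25.8%) lay 1000 bp or less from a TSS of the comprehensive GENCODE M21 set, which holds more transcripts. The members nearest the limit were in Tesk1 and Ip6k1, both 1002 bp from a TSS, and their signal percentiles in replicates 1, 2 and 3 were 60.6, 89.2 and 70.2 for Tesk1 and 16.7, 82.7 and 71.7 for Ip6k1. Just outside it, at 998 bp, were exonic regions of Nos1 with 63.4, 84.4 and 60.03 and of Phf8 with 1.80, 58.4 and 10.7. Regions on both sides of the limit thus included stronger and weaker ones.

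Exons were overlapped by more distal open sequence than their share of the genome. Of the bases in shared distal regions, 7.27% were exonic and 4.42% coding, against 2.41% and 1.18% of all bases more than 1000 bp from a TSS, ratios of 3.02 and 3.76. Library by library, without the requirement of sharing, 10.7%, 12.0% and 7.03% of distal peaks in replicates 1, 2 and 3 overlapped an exon, a mean of 9.91% ± 2.57 (SD, n = 3). Of 10541 exonic distal regions found in any library, 1165 were in all 3, 1536 in 2 and 7840 in 1. Of those in 1 library 7318 were in replicate 2, and of those in 2 libraries 1211 were missing only from replicate 1. When replicate 1 was left out, 2375 exonic distal regions were shared by the other libraries.

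The libraries differed in size. Replicates 1, 2 and 3 listed 34369, 122281 and 60862 peaks and 89836, 342756 and 156638 footprints, and read totals were not used here, so the depth is unknown and the number of listed peaks limits what can be shared. The tissue was checked by peaks within 1000 bp of the TSSs of marker genes: all 3 libraries had one at 11 of 12 erythroid, 4 of 12 hepatoblast, 2 of 6 endothelial, 3 of 6 mesenchymal, 3 of 6 neural, 2 of 6 muscle and 0 of 6 myeloid markers, against 51.4% of 21864 protein-coding genes. Of the 6 myeloid markers, 3 had a peak in replicate 2 and 2 in replicate 3. Of the 12 hepatoblast markers 4, 11 and 9 had one in replicates 1, 2 and 3, and 1 had none in any library. In the same order the counts were 3, 6 and 3 of 6 for neural markers and 2, 5 and 2 of 6 for muscle markers. The signal of a peak is the deposited value, whose scaling is not stated, so regions are compared within a library by percentile among all its peaks. Because replicate 2 lists the most peaks, the same region ranks against a longer list there, and percentiles are not compared between libraries as levels. In a bulk tissue, fewer cells with a site open and less cutting per cell cannot be told apart.

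Median signal of the members was 1.30, 1.71 and 0.941 in replicates 1, 2 and 3, at percentiles 54.7, 84.8 and 60.8. Intronic regions had medians at percentiles 42.6, 82.5 and 60.3, so the members stood 12.2, 2.23 and 0.475 percentile points higher, a mean of 4.96 ± 6.30 (SD, n = 3). Against intergenic regions the differences were 8.70, 2.41 and 2.78 points. The members were thus higher in every library, with the largest distance to intronic regions in replicate 1. With replicate 1 left out of both the choice of regions and the mean, the difference was 4.54 points over the other libraries. Across the 1165 members, signal in replicates 2 and 3 had Spearman's rho = 0.914, signal in 1 and 2 had 0.758, and the pair of 1 and 3 had 0.587, the lowest. The stricter peak list, which holds fewer peaks, included 643 members (55.2%) in all 3 libraries, beside 48.7% of intronic, 54.9% of intergenic and 69.9% of all shared regions.

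**Figure D1:**
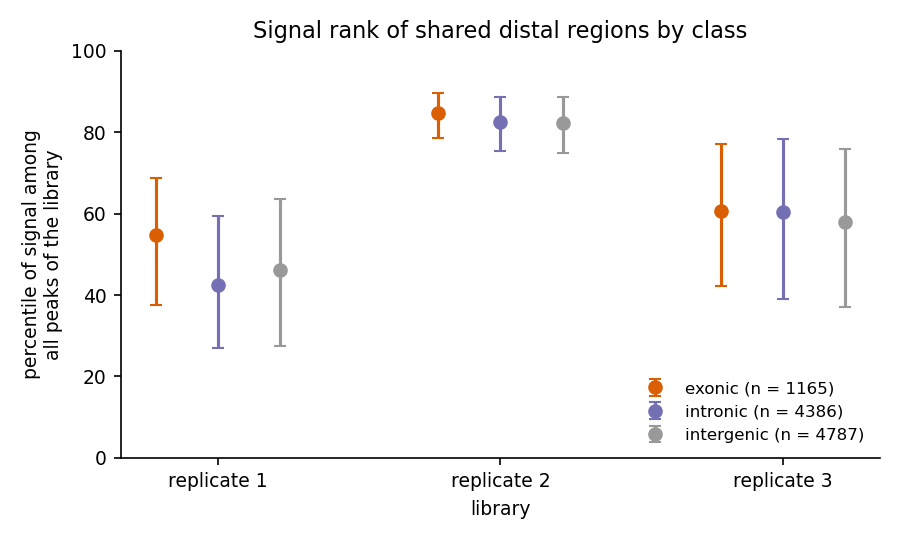
Percentile of signal among all peaks of the same library (y axis) for shared distal regions that are exonic, intronic or intergenic, in each of the 3 libraries (x axis). Points are medians and lines run from the first to the third quartile over regions. The exonic median is 54.7 against 42.6 for intronic regions in replicate 1, while in replicate 3 the medians are 60.8 and 60.3.

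The strongest members were ranked by the poorest of their 3 ranks, so that a high place needs high signal in every library. First came a region in the 3' UTR of Lars2, the mitochondrial leucyl-tRNA synthetase gene, with signals of 41.5, 70.1 and 31.1 in replicates 1, 2 and 3. Of the 32-base words in that region 58.1% occur elsewhere in the genome, so reads there could come from another place. Angptl6, which encodes an angiopoietin-like secreted protein, followed with 8.397, 25.7 and 17.8 (percentiles 99.3, 99.7 and 98.8). None of its 32-base words recur. Sptbn4, which encodes a spectrin of the axonal membrane skeleton, had 7.79, 17.6 and 15.1 in its region shown above. Prdm2, a gene for a zinc-finger histone methyltransferase, had 5.24, 17.9 and 13.4. Ubtf, the RNA polymerase I transcription factor gene, had 7.32, 17.6 and 12.5. The lowest percentile among these 5 regions was 93.8, for Prdm2 in replicate 1.

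Of the other strong members, Acbd4 (an acyl-CoA binding protein gene) had 8.60, 19.1 and 12.7 in an exon of its 5' UTR. Notch4, a receptor gene of the Notch pathway, had 6.49, 19.2 and 11.3 in its last exon. Myh7b, a myosin heavy chain gene, had 4.42, 16.9 and 12.9. Among the 12 strongest members signal in deposited units was highest in replicate 2 for all 12, and lowest in replicate 1 for 11, the exception being Lars2. Trim14 (an antiviral signalling gene), Fstl3 (a secreted inhibitor of activins) and Pdcl3 (a phosducin-like chaperone gene) ranged from 4.52 to 5.61 in replicate 1, from 14.2 to 16.4 in replicate 2 and from 8.88 to 9.67 in replicate 3. Kcnn4, which encodes the calcium-activated potassium channel of red cells, had 4.28, 18.5 and 18.2, so that its signal in replicate 3 came close to that in replicate 2.

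Of these 12 members, 10 were rich in CpG by the measure given below, 12 had a footprint in every library, and 9 overlapped coding sequence. The SP string lay under a footprint of all 3 libraries in 8 of them. At 5 of the 12 a comprehensive-set TSS was 1000 bp or less away: Acbd4 at 0 bp, Pdcl3 at 1, Fstl3 at 61, Ubtf at 180 and Notch4 at 420. The gene's own promoter, taken as 1000 bp on either side of its basic-set TSSs, had no peak in any library for 5 of the 12 (Angptl6, Notch4, Myh7b, Fstl3 and Pdcl3) and a peak in all 3 for 5 (Lars2, Sptbn4, Acbd4, Prdm2 and Ubtf). Over all protein-coding genes these shares were 32.1% and 51.4%. Among the weakest members were those of Cdkn1a, a cell cycle inhibitor gene, with 0.302, 0.229 and 0.263, and of Slc9a7, a sodium and proton exchanger gene, with 0.336, 0.340 and 0.249. Neither had a footprint in all libraries.

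**Figure D2:**
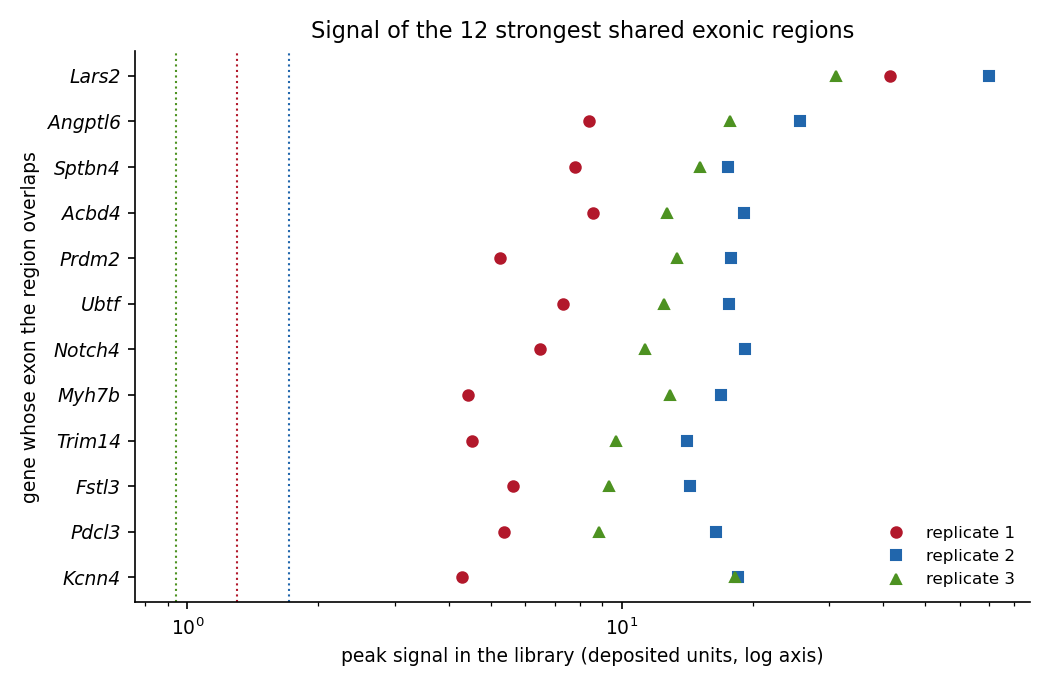
Peak signal in deposited units (x axis, log scale) of the 12 members with the best poorest rank, by the gene whose exon they overlap (y axis). Each symbol is 1 library and dotted lines are the medians over all 1165 members, 1.30, 1.71 and 0.941 for replicates 1, 2 and 3. The Lars2 region reaches 70.1 in replicate 2, and all 12 members lie above the median of their library.

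Members that share sequence with other places were few. In 12 of the 1165 over 50% of 32-base words recur in the genome. Besides Lars2, the gene models Gm11168 and Gm10722, near the start of chromosome 9, had signals of 21.3, 7.63 and 18.9 and of 23.4, 2.25 and 40.7, with all of their 32-base words repeated. Replicate 2, which had the highest signal at all 12 of the strongest members, had the lowest at both of these. The members in the neighbouring paralogs Selenbp1 and Selenbp2, selenium-binding protein genes, were 52.2% and 55.0% repeated and had values of 1.30, 5.04 and 6.31 and of 1.19, 5.24 and 7.31, so reads of the pair may be shared. These 4 genes were chosen after their values were seen.

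The members were rich in G and C. In a 200 bp window at the midpoint, median GC content was 57.5%, against 53.5% for both intronic and intergenic regions and 65.5% for shared regions within 1000 bp of a TSS. In each library's own distal peaks the exonic median exceeded the intronic one by 4.18, 4.49 and 4.36 percentage points, a mean of 4.34 ± 0.155 (SD, n = 3). A window was called CpG-rich where GC exceeded 50% and the ratio of observed to expected CpG exceeded 0.6. This held for 288 members, 24.7% (95% interval from 22.3% to 27.3%), beside 8.07% of intronic, 13.2% of intergenic and 78.2% of promoter regions. Among the 300 members near a comprehensive-set TSS the share was 28.7%, and among the other 865 it was 23.4%.

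Position in the gene went with CpG content. Of the 115 members wholly inside coding sequence 60% were CpG-rich, with a median of 14 CpG sites in the window. By contrast, 7.72% of the 259 members that overlapped only a 3' UTR were CpG-rich, and 16.0% of the 449 with a midpoint outside exons. CpG-rich members had median percentiles of 66.3, 87.9 and 66.3 in replicates 1, 2 and 3, and the other 877 had 52.7, 83.7 and 59.1. The CpG-rich members therefore ranked higher in all 3 libraries. Across the 1165 members Spearman's rho of CpG count with percentile was 0.2498, 0.204 and 0.0777, weak in each library. The points share libraries and neighbouring sequence composition. In intronic regions rho was 0.168, 0.175 and 0.0893, and in intergenic regions 0.319, 0.272 and 0.152, so this was not particular to members.

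A footprint was present in all 3 libraries in 1027 members, 88.2%, beside 86% of all shared regions, 85.4% of shared distal regions, 83.7% of intronic and 86.1% of intergenic ones. The share of members is therefore near the background. In single libraries 92.3%, 98.9% and 94.8% of members held a footprint, and only 2 members had none in any library. Footprints numbered 8.93, 15.5 and 10.7 per kb of member sequence in replicates 1, 2 and 3, against 8.26, 15.1 and 11.4 per kb in intronic regions. The difference changed sign between libraries (0.67, 0.43 and -0.79 per kb, mean 0.105 ± 0.782, SD, n = 3), with p = 1 by an exact two-sided sign-flip permutation test over libraries, a test whose smallest p with 3 libraries is 0.25. Without replicate 3 the mean was -1.04 per kb. Against intergenic regions the mean was -0.136 ± 0.449 per kb (p = 0.75 by the same exact test). Bases inside a footprint of every library existed in 886 members and made up 6.98% of member bases.

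Within members that cross an exon edge, footprints covered the intron side more than the exon side. In 529 members with at least 20 bases on each side, 10.4%, 22.6% and 12.7% of exonic bases lay in a footprint in replicates 1, 2 and 3, against 13.1%, 26.7% and 17.1% of intronic bases. The exon side was lower in 3 of 3 libraries, with a mean difference of -3.72 percentage points ± 0.904 (SD, n = 3), and the exact sign-flip test gave p = 0.25, the smallest it can give. Since footprints gather at the middle of a region, the same was computed within 50 bp of the midpoint. There the exonic share was 18.5%, 29.2% and 20.4% and the intronic share 23.4%, 37.9% and 27.6%, a mean difference of -6.94 ± 1.91 points, again with p = 0.25 in the exact test. In the 25 bases on each side of the midpoint 32.8%, 48.1% and 35.2% of all member bases were in a footprint, and from 100 to 124 bp away 3.79%, 16.6% and 6.84%.

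Footprint coverage varied around splice sites. The members contained 457 acceptor sites, where an intron ends, and 475 donor sites, where it begins. Over the 10 exonic bases next to a donor 8.49%, 17.6% and 9.66% of bases were in a footprint in replicates 1, 2 and 3, while in the intronic bin from -40 to -31 bp the shares were 19.6%, 38.0% and 22.1%. The donor bin was lower in 3 of 3 libraries. These bins, and those named for acceptors, were chosen after the profile was seen, and others were near or below them: from 130 to 139 bp into the exon at donors the shares were 5.96%, 16.9% and 8.01%, and from 40 to 49 bp at acceptors 9.89%, 22.1% and 11.7%. At acceptors the bin from -20 to -11 bp, which holds the pyrimidine-rich tract before the exon, had 9.91%, 20.8% and 11.1%, and the bin from -60 to -51 bp had 16.9%, 35.4% and 25.4%. GC content was 51.9% in the first of these bins and 59.2% in the second, and its part in the difference was not tested.

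**Figure D3:**
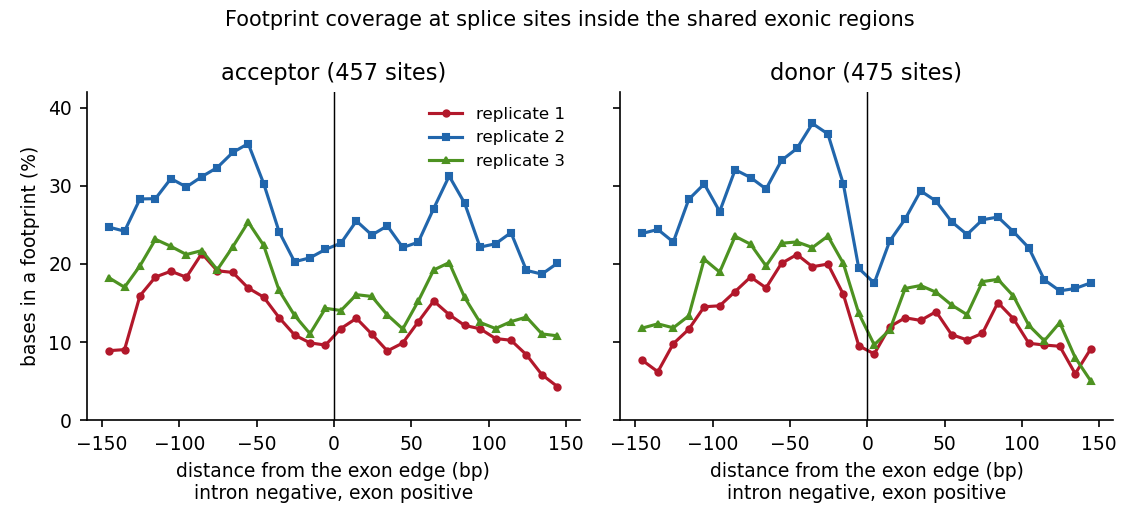
Percent of bases inside a footprint (y axis) in bins of 10 bp by distance from the exon edge (x axis, intron negative and exon positive) at the 457 acceptor and 475 donor sites inside members, 1 line per library. At donors coverage falls to 8.49%, 17.6% and 9.66% in the first exonic bin, from 19.6%, 38.0% and 22.1% in the bin from -40 to -31 bp, and the bin from 130 to 139 bp is at 5.96%, 16.9% and 8.01%.

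Motifs were searched on both strands in the 200 bp window at each midpoint, as exact strings, and a match is not a binding site. The CTCF core was in 229 members, 19.7% (95% interval from 17.4% to 22.1%), beside 18.4% of intronic, 20.8% of intergenic, 19.5% of all shared distal and 2.08% of promoter regions. That is close to the background of distal regions, and the difference of 1.23 percentage points to intronic regions became -0.777 when replicate 3 was left out. The reversed string keeps base content but starts with a CpG that the core lacks. It was in 0 of the 1165 members and 0% of intronic and intergenic windows, so it cannot compare these classes. Of 238 CTCF matches in whole members, 180 (75.6%) lay under a footprint of every library, and by library 87.8%, 97.9% and 79.4% did. For intronic regions the share under all 3 was 66.1%.

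CTCF matches were unevenly placed among the members. They were in 25.9% of members that met only a 3' UTR, in 22.5% of those with a midpoint outside exons, and in 6.09% (7 of 115) of those wholly inside coding sequence. In the Gapdh member, which spans 2 coding stretches of this glycolytic enzyme gene and the intron between them, the match printed above lay in the intron. Its signals were 1.56, 1.22 and 0.727, at percentiles 62.2, 80.6 and 51.2, near the middle of all members. Of its 32-base words 28.6% recur in the genome, and a comprehensive-set TSS lay 247 bp away. Slc48a1, which encodes a haem transporter, and the 3' UTR of Lyl1, a bHLH factor gene of blood progenitors, also held a CTCF match under a shared footprint.

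Some other motifs differed between members and intronic regions. GGGCGG, the SP string, was in 24.3% of members, 15.8% of intronic and 59.9% of promoter windows. Its reversed string, GGCGGG, was in 23.2% of members and 13.3% of intronic windows. Both strings occur in GGGCGGG, as in Sptbn4, so the reversed string cannot separate the motif from base content here. CGCATGCGC, the NRF1 string, was in 15 members (1.29%), 0.319% of intronic and 0.668% of intergenic windows, and its reversed string in 0 members. Of 25 NRF1 matches in members 17 lay under a footprint of all 3 libraries, beside 16 of 29 in intronic and 33 of 55 in intergenic regions. Matches on both strands can overlap at 1 site, as in Angptl6, and the 17 lay in 10 members. AGATAA was less frequent in members, 11.2% against 16.7% of intronic and 12.6% of intergenic windows, with the reversed string at 3.18%, 5.08% and 4.89%. TGATAA showed the same order, 6.95%, 11.2% and 7.77%, with the reversed string at 2.66%, 3.90% and 3.15%. The AP-1 string TGANTCA was in 3.78% of members and 6.95% of intronic windows, TGTTTAC, the string for the hepatic FOXA factors, in 0.773% and 2.26%, and the NFE2 string GCTGAGTCA, which contains an AP-1 match, in 0.258% and 1.55%. The reversed strings were in 3.61% and 5.02% for AP-1, 1.55% and 2.83% for FOXA and 0.086% and 0.068% for NFE2. For both GATA motifs, AP-1 and FOXA the reversed string was thus less frequent in members than in intronic windows as well. Their lower shares in members were therefore not particular to the motif strings.

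Footprints rarely covered GATA matches in all libraries. Of 174 AGATAA matches in members 10 (5.75%) lay under a footprint of every library, and by library 12.6%, 38.5% and 32.2% did. The CACCC box, CCNCACCC, was in 11.8% of members and 13.0% of intronic windows, with 11.4% of 211 matches under a footprint of all 3. It can overlap an SP match, as in Ubtf. Both shares are below those of CTCF and NRF1 matches in the same members.

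**Figure D4:**
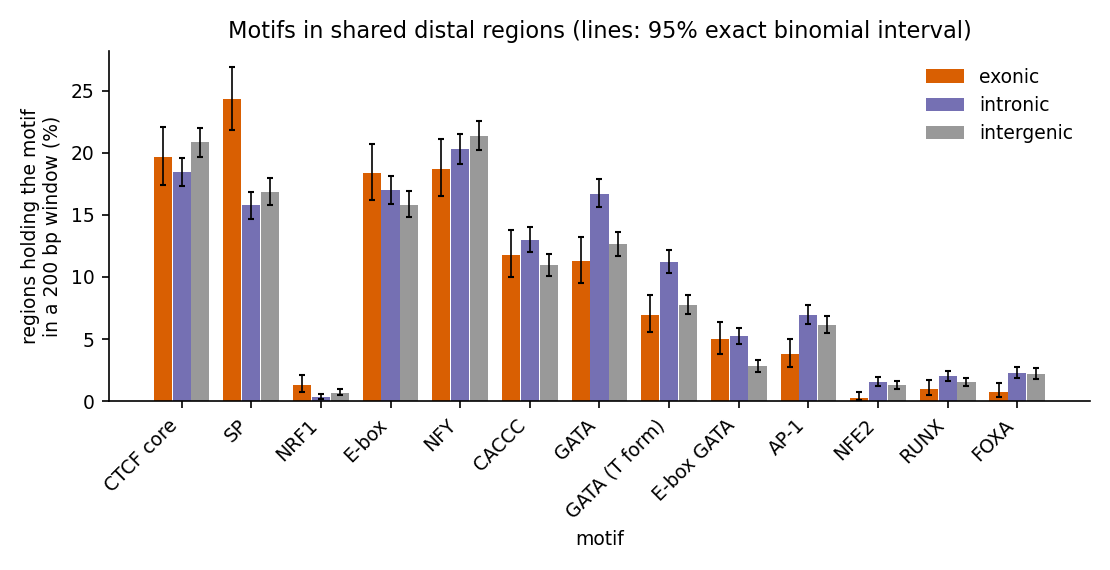
Percent of shared distal regions holding each motif in a 200 bp window (y axis) for 13 of the 20 motifs searched (x axis), by class of region. Bars are shares and lines are exact binomial 95% intervals, which cover counting over regions only. The CTCF core is in 19.7% of exonic and 18.4% of intronic regions, while AGATAA is in 11.2% and 16.7%.

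The E-box GATA composite marked members whose rank relative to the other members differed between libraries. It was in 58 members (4.98%), 5.22% of intronic and 2.82% of intergenic windows, and its reversed string was in 0.086% of members. Members with it had median percentiles of 41.98, 90.3 and 86.0 in replicates 1, 2 and 3, and the other 1107 had 55.5, 84.6 and 60.03. The difference was thus -13.5 points in replicate 1, 5.71 in replicate 2 and 25.9 in replicate 3. Of the 58, 51 (87.9%) had a higher percentile in replicate 3 than in replicate 1, against 54.7% of the others. Differing list lengths enter both shares, so only members with and without the composite are compared here. Intronic regions with and without the composite differed by -5.63, 7.63 and 28.6 points, so the pattern was not particular to exons. AGATAA, which can be part of the composite, gave -10.1, 2.89 and 17.6 points in members and -7.42, 6.35 and 26.0 in intronic regions. Members with TGATAA stood at 46.6, 88.3 and 79.4, against 55.7, 84.6 and 60.03 without it. The pattern was therefore not particular to the composite either. No match in members lay under a footprint of all 3 libraries (0 of 68), and by library 5.88%, 25% and 17.6% did. The composite is the longest string searched, and the median footprint was 10 bp wide in each library before its extension. Covering all of it was therefore harder than for shorter strings, and these shares cannot show a lack of binding.

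Arrb1, a beta-arrestin gene whose intron holds the composite printed above, had signals of 2.10, 10.5 and 12.9 at percentiles 72.0, 96.6 and 97.1. Ache, the acetylcholinesterase gene, had 1.70, 7.83 and 12.4, and Pcnx3 had 1.68, 8.54 and 10.04. These 3 members were chosen after their values were seen, and in each the signal was highest in replicate 3. Members with the CTCF core went the other way, with median percentiles of 59.0, 83.5 and 53.9 against 53.9, 85.2 and 62.6 without it. Of those with the core 36.7% had a higher percentile in replicate 3 than in replicate 1, against 61.1% of those without it. Intronic regions with and without the core differed by 8.53, -2.76 and -14.0 points, and intergenic ones by 3.70, -2.92 and -11.6. Members with the SP string ranked higher in all 3 libraries, at 61.5, 88.3 and 69.7 against 53.6, 83.6 and 58.4. Intronic regions with the SP string stood 5.74, 5.03 and 10.8 points higher than those without it, and intergenic ones 11.0, 5.22 and 12.3. The CTCF and SP patterns were therefore not particular to exons. The libraries are replicates of 1 group. Replicate 1 listed the fewest peaks, and the part of list length in these differences was not tested.

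**Figure D5:**
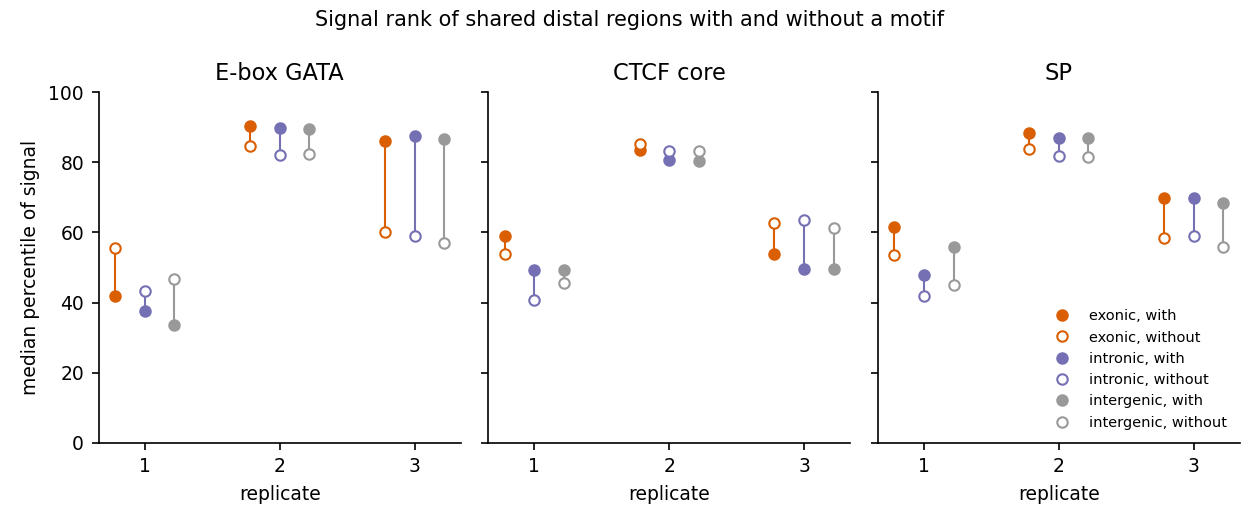
Median percentile of signal (y axis) of shared distal regions with (filled) and without (open) the E-box GATA composite, the CTCF core or the SP string in each library (x axis), by class of region. Exonic regions with the composite stand at 41.98, 90.3 and 86.0 in replicates 1, 2 and 3, and without it at 55.5, 84.6 and 60.03.

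The members were spread over many genes. Assigned to the gene with the largest exon overlap, they fell in 1059 genes, of which 963 held 1 member, 87 held 2, 8 held 3 and 1, Parp3, held 4. A peak at the promoter in all 3 libraries was found for 59.8% of the 1057 of these genes whose promoter could be scored, beside 51.4% of all protein-coding genes and 68.8% of genes with a shared intronic region. For 183 (17.3%) no library had a promoter peak, beside 32.1% of all protein-coding genes and 12.7% of genes with a shared intronic region. The 4 members of Parp3, a gene for an ADP-ribosyltransferase of DNA repair, were unequal. The one at exon 4 had signals of 1.30, 2.12 and 0.976 and footprints in every library, and the other 3 lay between 0.235 and 0.507 in all libraries with 0 to 2 footprints.

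By any exon overlap, 1081 of 21951 protein-coding genes (4.92%) held a member. Among the gene lists, erythroid genes had 7 of 50 (14%), haem and iron genes 3 of 28 (10.7%), blood progenitor genes 2 of 25 (8%) and megakaryocyte genes 2 of 14 (14.3%). Hepatoblast genes had 1 of 44 (2.27%), developmental and Hox genes 1 of 47 (2.13%) and myeloid and lymphoid genes 0 of 22. Neural and muscle genes had 4 of 22 (18.2%), housekeeping genes 2 of 20, chromatin genes 3 of 32 and endothelial and mesenchymal genes 2 of 25. The highest share was therefore outside the blood lists, and the lists were not matched for exon length.

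In Klf1, the gene of an erythroid zinc-finger activator, the member lay wholly in exon 2, 1153 bp from the TSS, with signals of 5.09, 10.02 and 4.11 at percentiles 93.3, 96.4 and 86.5 (mean 92.1 ± 5.05, SD, n = 3). It held 6, 5 and 4 footprints, and the 200 bp window at its midpoint has 22 CpG sites. Tal1, the gene of a bHLH factor of blood formation, had 1.49, 3.18 and 0.921, at percentiles 60.6, 90.1 and 60.03, over sequence that is 74.8% GC. Ank1, Sptb and Kel, for ankyrin, beta-spectrin and the Kell blood group protein of the red cell membrane, had 0.907, 1.16 and 0.940 in replicate 1, 1.30, 1.28 and 3.53 in replicate 2 and 0.512, 0.644 and 2.46 in replicate 3. Nprl3, whose introns are known to hold enhancers of the alpha-globin genes, had a member with 1.30, 1.16 and 0.824 at the edge of exon 9, with 21 exonic bases. Of these 6 members Klf1 alone was above the third quartile of all members in every library (1.90, 3.00 and 2.02).

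Among the genes of haem synthesis, Uros had 1.31, 5.67 and 8.67 at an exon of its 5' UTR and Urod had 1.58, 2.12 and 1.27. Both regions overlapped a TSS of the comprehensive set. Spi1, which encodes the myeloid and B-cell factor PU.1, had 3.13, 4.42 and 2.54 in its last coding exon. The TSS nearest to this region was 2784 bp away and belonged to another gene, while the nearest TSS of Spi1 was 19045 bp away. Lyl1 had 4.06, 6.51 and 2.84 in its 3' UTR and 1.29, 2.11 and 1.02 in its last coding exon, where replicate 3 listed no footprint. Itga2b, the gene of the platelet integrin alpha chain, had 4.12, 13.0 and 6.66 at exon 4 and 1.28, 2.50 and 1.13 at exon 27, and both regions overlapped a comprehensive-set TSS. The von Willebrand factor gene Vwf had 2.36, 2.21 and 1.38, 10 bp from one.

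Genes of other tissues had members too. The only hepatoblast gene was Apoa1, for the main protein of high-density lipoprotein, with 1.52, 1.39 and 0.914 in its last coding exon and an NRF1 string that no shared footprint covered. Gfap, a gene of glial cells, had 1.70, 3.62 and 2.83, and Neurog2, a proneural bHLH gene, had 1.78, 1.14 and 0.498. The titin gene Ttn had 0.638, 0.476 and 0.367, and the ryanodine receptor gene Ryr1 had 0.952, 1.34 and 0.699 at exon 57. Lhx2, a developmental homeobox gene, had 1.15, 1.11 and 0.644. Apart from Gfap these were at or under the members' medians in replicates 2 and 3, and an open exon says nothing here of the gene's expression, which was not measured.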

How the data were processed

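DNase-seq peaks and footprints of 3 libraries of mouse embryo liver at 13.5 days were used. Peaks and their signal were made by the authors per library on mm10, as the deposited file listings say. How the signal was scaled, and with which peak caller and footprint tool, is not given in the sources used here. In the deposited footprint lists every row has the value 0.01, so only positions were used, and the files of false discovery rates were not used here. Of each library's 2 peak lists the one with more rows was taken.

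Peaks were merged where they overlapped by at least 1 bp. Genes came from GENCODE M21 basic, sequence from the RefSeq copy of GRCm38, the assembly of mm10. A percentile is the share of a library's peaks with lower signal. A motif was under a footprint where a footprint, extended by 5 bp, covered it. Repeats were counted as 32-base words found elsewhere. Python 3.11.15, numpy 2.4.6, pandas 2.3.3 and scipy 1.17.1 were used, and the counting steps were tested on simulated data. Means are over 3 libraries; the only test was the exact sign-flip permutation test.

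Members, the 11 gene lists and the 20 motifs were chosen with earlier results of these data known. Named genes were the 12 members with the best poorest rank, the 3 with the lowest best rank, the genes with the most members, up to 6 members on each list, those nearest the 1000 bp limit and the best member for each motif. One of these is not reported here. The alternatives tried were another peak list, equal peak numbers, other distance, exon and merging rules, leaving out each library and, chosen after seeing the data, the comprehensive annotation, merging of abutting peaks and removal of repeated regions.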

Additional observations from a re-analysis of the deposited data

How the results depend on the processing

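Of 117 values recomputed under an alternative, 87 stayed by the rule set for them, 23 moved and 7 changed sign. For footprints per kb the rule asked only for the same sign. For signal rank the margin was the SD of 6.30 points, wider than the difference of 4.96 itself. With exons of protein-coding transcripts only, the members stayed at 1165 and no value changed. The excess of signal rank over intronic regions and the higher GC content kept their direction under every alternative run. The excess of footprints per kb and of the CTCF core over intronic regions did not, so neither has a settled direction. With the stricter peak list, 638 regions were members and 97.8% of them had a footprint in all libraries. With equal numbers of the strongest peaks, 11.3% of shared distal regions were exonic and 93.8% of members had a footprint in all libraries. At more than 500 bp from a TSS the exonic share was 11.4%, the footprint share 85.6%, the footprint difference -0.217 per kb and the GC difference 4.33 points. At more than 2500 bp the exonic share was 9.85% and the GC difference 3.88 points. Where at least 50% of a region had to be exonic, 694 regions were members (6.29% of shared distal regions), 62.7% met coding sequence, and the differences were -0.179 footprints per kb, 4.72 GC points and -0.987 points for the CTCF core. With the midpoint in an exon the values were 716, 6.49%, 63.7%, -0.371, 4.54 and -0.545. The comprehensive annotation, chosen after seeing the data, gave an exonic share of 9.57%, a coding share of 63.8% and a GC difference of 3.29 points.

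Leaving out 1 library at a time gave from 1130 to 2375 members, an exonic share from 8.39% to 11.1%, a footprint share from 84.7% to 88.7%, a footprint difference from -1.04 to 0.583 per kb and a CTCF difference from -0.777 to 3.67 points. The higher count came without replicate 1 and both sign changes without replicate 3. Fewer libraries required and fewer regions kept are part of how these settings are built, and the cause of the other shifts was not tested. No paired analysis was possible because the libraries form 1 group. The results rest on listed peaks without read counts, so the number of listed peaks limits which regions could be shared, and depth is unknown. The sign-flip test over 3 libraries cannot give a p below 0.25.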
